A study of Rattus norvegicus with 7 samples.

Results

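The regions described here are the Arteridin peaks of the assembled rat chromosomes 1 to 20 and X that lie outside the start of chromosome 6. Arteridin chromatin immunoprecipitation followed by sequencing (ChIP-seq) gave 1 deposited narrow peak list for A10 cells overexpressing Arteridin (ORF) and 1 for A10 cells without overexpression (CTR). Peaks with a summit below position 12000000 of chromosome 6, on the mitochondrial genome or on unplaced scaffolds were left out. This kept 351 of 3013 ORF peaks and 216 of 2079 CTR peaks, 567 of 5092 in all. The members were chosen by the position of the authors' peak calls in these same libraries, so their numbers, folds and reads are given as descriptions, with no test. Of the peaks left out, 2571 ORF and 1755 CTR peaks lay on the chromosome 6 start, and 91 ORF and 108 CTR peaks on the mitochondrial genome or scaffolds. The nearest ORF peak left out at that boundary was 11720116 to 11720206 with 7 reads at its summit, and the first one kept was 12528047 to 12528106 with 8. For CTR these were 11656496 to 11656562 and 12528525 to 12528579, with 10 reads each. The nearest peak of either list lay 279.9 kb from the boundary.

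A10 is a smooth muscle line from the rat thoracic aorta, used here at passages 10 to 15, and plasmids were brought in by lipid transfection. Both groups were precipitated with a custom rabbit antibody raised to the full-length protein, and 50 nt single-end reads were made. Whether the CTR cells received an empty plasmid is not stated by the labels. The series also holds 3 YBX1 ChIP lists from the same line. They are labelled NC (untreated cells), ART (overexpressing Arteridin with a FLAG tag) and PSR (overexpressing the ATT mutant of lncPSR). Of the 2 input libraries, 1 is labelled for YBX1 and 1 for Arteridin. Each condition had 1 library, so no difference between ORF and CTR has a replicate check, and the intervals below are 95% intervals for counting error only.

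Arteridin is the protein product of the Phenotype Switching Regulator gene, which also gives rise to lncPSR. Vascular smooth muscle cells can leave a contractile state for one in which they divide, migrate and lay down matrix, and this change is called phenotype switching. In ChIP-seq, DNA bound by the antibody's target is enriched over an input library made from the same kind of chromatin without precipitation. A narrow peak is a short stretch where the reads exceed the level expected from that input. Where the input itself is dense the expected level is high, and a peak there needs many reads to be called.

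The lists give, for each peak, the authors' fold over the expected level and a −log10 p, and together these fix how many reads the summit held and how many were expected. The lowest expected level, called the background here, was 0.361 reads in ORF and 0.349 in CTR (ORF over CTR 1.03). The expected level of every listed peak equalled either this background or a whole number of input reads counted over 1 fragment, 1 kb or 10 kb. A peak at the background needed at least 5 reads in either list. The median member had 8 reads in ORF and 9 in CTR, and the median fold was 5.14 and 5.19. At or above a −log10 q of 5 were 57 ORF members (16.2%) and 54 CTR members (25.0%), beside 16.2% of the whole ORF list and 15.2% of the whole CTR list. No annotation or genome of the build of these lists was used, so peaks are named by position and not by gene, and no sequence is printed.

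Outside the chromosome 6 start, Arteridin peaks ranged from single sites through small groups to clusters spanning 0.970 to 298.3 kb. Overlapping peaks of both lists were merged into 488 sites, of which 77 had peaks of both lists, 272 had ORF peaks only and 139 had CTR peaks only. A site with no other site within 100 kb was called isolated, and 5 or more sites linked by gaps of up to 100 kb were called a cluster. There were 201 isolated sites, 44 small groups of 2 to 4 sites holding 107 sites, and 14 clusters holding 180. Of the ORF members, 144 (41.0%, interval 36.0 to 46.2) were isolated and 130 (37.0%, 32.2 to 42.2) lay in clusters. Among CTR members, 69 (31.9%, 26.1 to 38.4) were isolated and 106 (49.1%, 42.5 to 55.7) lay in clusters.

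The ORF list held 1.63 times as many members as the CTR list, beside 1.45 times as many peaks in the whole list and 1.46 times on the chromosome 6 start. The ratio differed among the classes. Isolated peaks numbered 144 and 69 (ratio 2.09). Clustered peaks numbered 130 and 106, a ratio of 1.23, which became 1.07 (104 and 97) without the 33-site cluster on chromosome 8. Classes were set on sites of both lists together, so neighbours from the longer ORF list can move CTR peaks out of the isolated class. With sites linked within each list alone, tried after the values were seen, isolated peaks numbered 156 and 84 and clustered peaks 114 and 81. The excess was in weak peaks. At a −log10 q of at least 5 the members numbered 57 and 54, a ratio of 1.06, and below it 294 and 162, a ratio of 1.81. The value 5 stood for the same number of reads in both lists at the background, where 8 reads gave 4.47 in ORF and 4.45 in CTR and 9 reads gave 5.61 and 5.62. On the chromosome 6 start, the ratio was 1.89 at a −log10 q of at least 5 (390 and 206 peaks) and 1.41 below it (2181 and 1549). Whether these differences exceed the variation between libraries of 1 condition cannot be told with 1 library each.

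Members occurred on all 21 chromosomes in ORF and on 20 in CTR, where chromosome 16 had none against 6 in ORF. Chromosome 1 had the most, 73 in ORF and 61 in CTR, and 41 and 39 of these were clustered. Chromosome 4 held 50 ORF and 20 CTR members, with 26 and 8 isolated. Chromosome 12 had 17 ORF members against 3 in CTR, of which 13 and 2 were isolated, and none of its members was clustered. CTR members were more numerous on chromosome 13, with 4 ORF and 11 CTR, and on chromosome 14, with 3 and 4. Isolated ORF peaks outnumbered isolated CTR peaks on 17 chromosomes, were fewer on 1 and equal in number on 3.

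**Figure D1:**
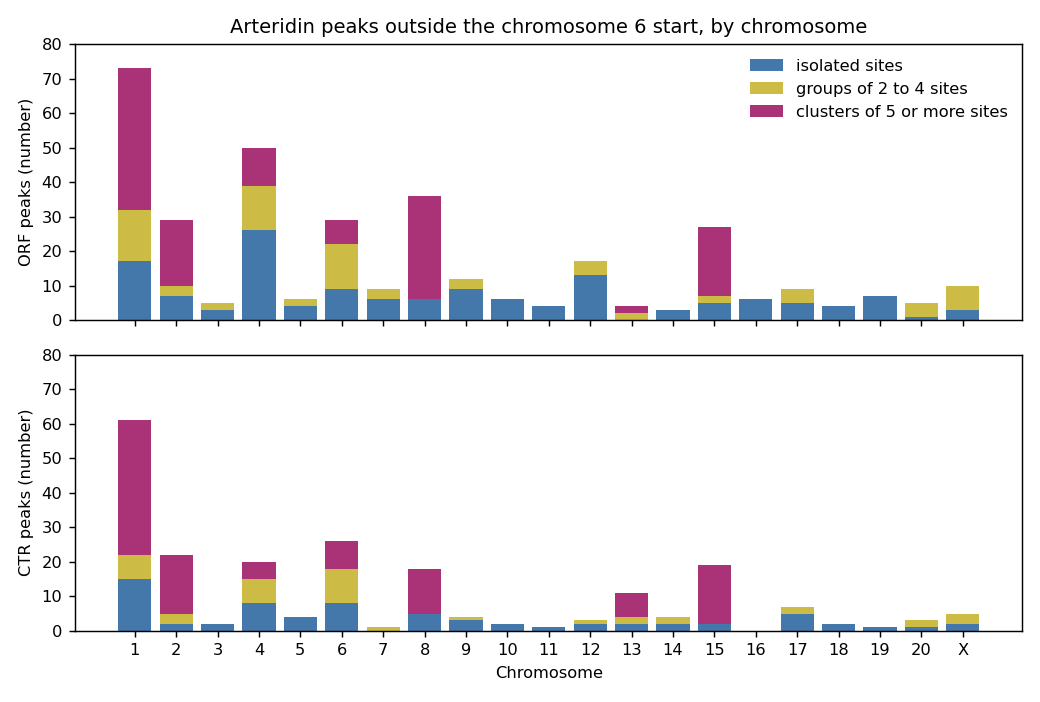
Number of member peaks on each chromosome (horizontal axis) in the ORF list (top) and the CTR list (bottom), stacked by whether they are isolated, in groups of 2 to 4 sites or in clusters. Clusters occur on 7 chromosomes, and chromosome 1 is the highest bar in both lists, with 73 and 61 peaks.

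In 5 clusters the median expected level was under 2 times the background. They held 88 ORF and 69 CTR members at 118 sites, 67.7% of all clustered ORF members, and their median expected levels were at most 1.79 times the background in ORF and 1.38 times in CTR. The grouping by expected level was made after the values were seen. Sharing between the lists ran from nearly all peaks in one of these clusters to few in another.

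The most compact was on chromosome 15 from 22207484 to 22212120, where 13 sites followed each other over 4.64 kb with a median spacing of 329.5 bp. Each list had 11 peaks there, and 9 of the 11 overlapped the other list in both directions. Peaks covered 22.5% of this region in ORF and 30.4% in CTR, and how much overlap such packing alone would give was not tested. Reads at the summits ran from 6 to 19 with a median of 8 in ORF and from 7 to 17 with a median of 8 in CTR. The highest peak, 22211684 to 22211862, was the same site in both lists, with 19 ORF and 17 CTR reads and folds of 14.7 and 9.35. The folds differ more than the reads because the CTR level there came from 1 input read over the fragment, 2.65 times the background. Its ORF fold was the highest among clustered members.

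On chromosome 2 from 197333140 to 197349226 the peaks formed 2 short blocks separated by 10.8 kb without a peak in either list. The first block, 2.45 kb long, had 5 ORF and 6 CTR peaks, and the second, 2.88 kb long, had 7 and 5. Of the 12 ORF peaks 11 (91.7%) overlapped CTR, and of the 11 CTR peaks 10 (90.9%) overlapped ORF. ORF summits had 8 to 16 reads (median 12) and CTR summits 8 to 21 (median 11). The highest CTR fold, 13.5 with 21 reads, was at 197334552 to 197334691, where the overlapping ORF peak had 12 reads. The highest ORF fold was 12.5, at 197333140 to 197333209, with 16 ORF and 15 CTR reads, and equally at 197334090 to 197334195, with 16 and 11. Peaks covered 7.24% of this region in ORF and 9.13% in CTR, and both blocks were listed in both libraries.

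The cluster with the most peaks was on chromosome 1 from 228985925 to 229025465, with 32 peaks in each list at 49 sites. Its median expected level was 1.10 times the background in ORF. Here 15 ORF peaks (46.9%) and 14 CTR peaks (43.8%) overlapped, and 17 and 18 did not. The overlaps were mostly in 1 block of 11.1 kb, 228997491 to 229008600, where 13 of 20 ORF and 12 of 20 CTR peaks overlapped. In a second block of 8.23 kb, 229017233 to 229025465, 2 of 10 ORF and 2 of 9 CTR peaks did. Reads were alike, 5 to 13 with a median of 8 in both lists. The highest ORF fold, 9.67 with 13 reads at 229017233 to 229017343, was at a peak without a CTR partner. In CTR the highest fold was 8.08, with 10 reads at 229007032 to 229007175.

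A second chromosome 2 cluster (261361209 to 261380605) comprised 7 ORF and 6 CTR peaks and was shared at 2 sites only. Those were the 2 highest ORF peaks of the cluster. The site from 261363980 to 261364061 had 17 ORF and 16 CTR reads, with folds of 13.2 and 12.6, and the one from 261363525 to 261363708 had 15 and 11 reads. The median ORF peak there had 6 reads and the median CTR peak 9.

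Spread over 298.3 kb of chromosome 8, between 38745992 and 39044283, were 26 ORF peaks and 9 CTR peaks. Only 2 of the 26 (7.69%) and 2 of the 9 (22.2%) overlapped. All summits were low, with 5 to 10 reads in ORF and 5 to 8 in CTR and a median of 7 in both, and the highest folds were 7.35 and 6.67. Sites were 4936 bp apart at the median, against 416.5 bp in the chromosome 1 cluster, and peaks covered 0.730% of the region in ORF and 0.256% in CTR. Of these 35 peaks, 1 ORF peak and no CTR peak reached a −log10 q of 5. Without this cluster, the shared part of the ORF peaks in the clusters near background was 59.7%, against 44.3% with it.

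**Figure D2:**
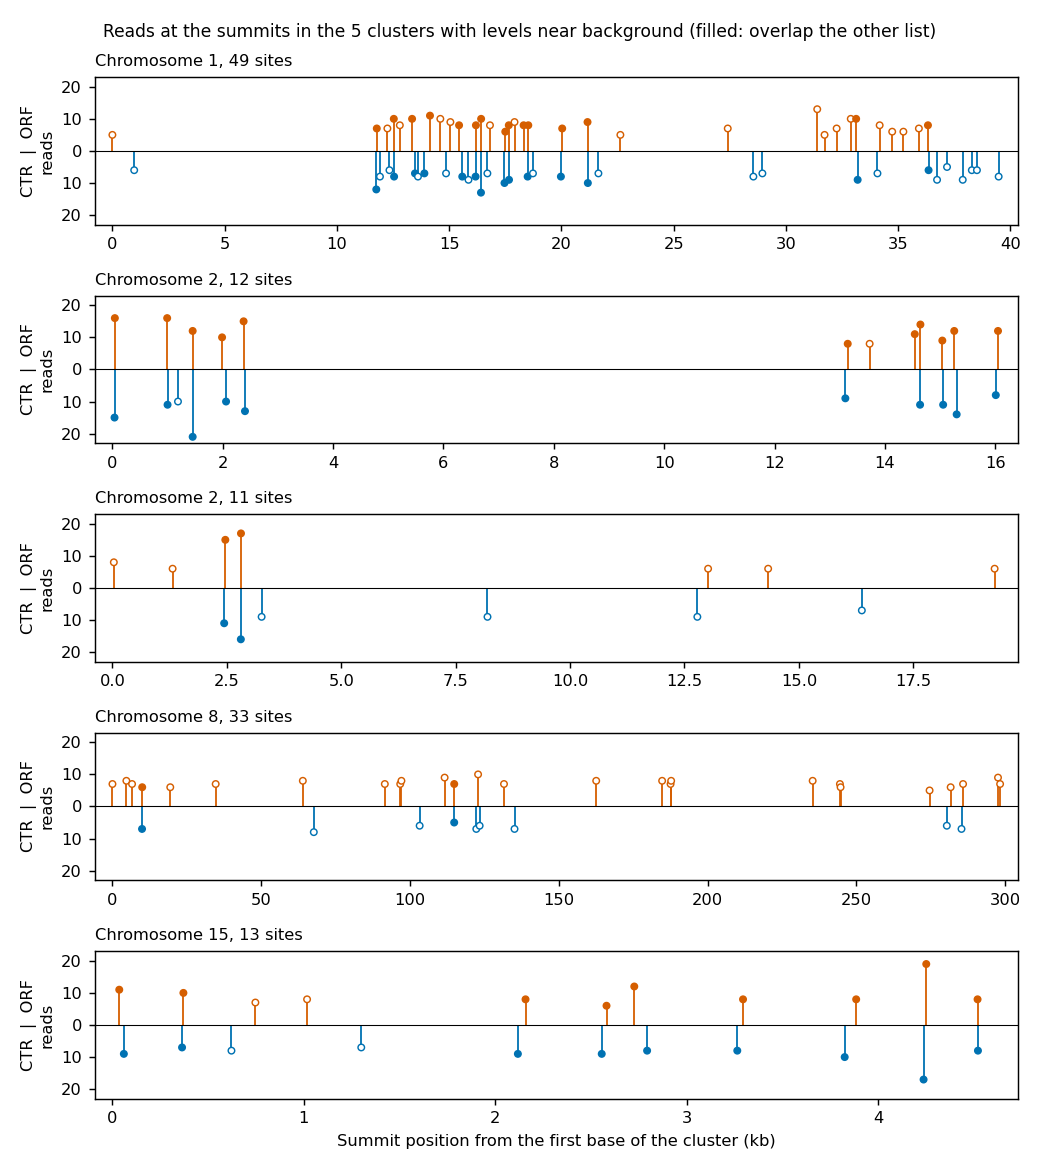
Reads at each summit (vertical axis, ORF upward and CTR downward) against the distance from the first base of the cluster in kb, for the 5 clusters with expected levels near the background. Filled points overlap a peak of the other list. In the compact clusters on chromosome 15 and the first one on chromosome 2 most points are filled, while 2 of 26 ORF points are filled on chromosome 8, where the axis spans 298.3 kb.

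The other 9 clusters lay where the input was dense. Their median expected levels were 5.03 to 105 times the background in ORF and 4.82 to 79.5 times in CTR, and they held 42 ORF and 37 CTR members, of which 17 each overlapped the other list. Median folds were low in the densest of them. On chromosome 13, between 33449129 and 33571799, the 2 ORF and 7 CTR peaks had median folds of 1.83 and 2.12 although their summits held 57 to 82 and 42 to 79 reads. The ORF peak from 33570615 to 33570712 had 82 reads over an expected 47.0, a level that corresponds to 50 input reads over 1 fragment.

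Chromosome 1 from 148622858 to 148719207 had 9 ORF and 7 CTR peaks with median reads of 33 and 37, and 6 of each overlapped. Its highest ORF fold, 9.38 at 148719147 to 148719207 with 26 reads, had no CTR partner. Near the start of chromosome 8, from 181334 to 182303, 4 ORF and 4 CTR peaks crowded into 970 bp with 34 to 45 and 34 to 41 reads. Of each list 2 overlapped, where peaks covered 42.1% of the region in ORF and 31.0% in CTR. The remaining clusters of this kind were on chromosome 4 (29649094 to 29735266 and 176606670 to 176619138), chromosome 6 (138465756 to 138638136 and 139158889 to 139209995) and chromosome 15 (5396219 to 5541599 and 5839426 to 5963483). Each of these 6 held 3 to 6 ORF and 2 to 4 CTR peaks. Their highest ORF folds were 5.97 and 5.56 on chromosome 4, 5.76 and 5.50 on chromosome 6, and 5.24 and 5.16 on chromosome 15. In the first chromosome 15 cluster none of the 6 ORF and 3 CTR peaks overlapped, and in the other 5 clusters 1 or 2 peaks of each list did.

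The strongest Arteridin sites outside the chromosome 6 start were not in clusters. A pair of shared sites on chromosome 13, 75060105 to 75060408 and 75060968 to 75061039, had ORF folds of 63.0 and 33.4. The first had 106 ORF and 81 CTR reads and the second 49 and 24. The isolated site on chromosome 1 from 265469348 to 265469424 had 56 and 23 reads and an ORF fold of 36.8. Every other ORF member had a fold of at most 14.7. The ORF expected level was under 2 times the background at all 3. It came from 10 input reads per kb at the second chromosome 13 site and 11 at the chromosome 1 site. Both lists gave these same whole numbers, but the series has only 1 Arteridin input, so this is not a repeated measurement. At the first chromosome 13 site the CTR level was 5.30 times the background, which gave a CTR fold of 28.8. The 106 reads equal the most that a 53 bp fragment allows if 1 read per position and strand is kept. The sources used here do not say how duplicate reads were treated, so this ORF value may be capped.

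Few isolated sites recurred. Both lists held 12 of the 201 isolated sites, which is 8.33% of isolated ORF peaks (4.83 to 14.0) and 17.4% of isolated CTR peaks (10.2 to 28.0), beside 22.6% and 33.2% of the whole lists. By the definition used, an isolated peak either overlaps the other list or has no peak of it within 100 kb. With sites linked within each list alone, as tried once the values were known, the shares were 7.69% and 19.0%. After the chromosome 1 site, the isolated shared sites with the highest ORF fold were chromosome 6 from 140571742 to 140571821 and chromosome 1 from 98484143 to 98484195. They had 23 and 18 reads, and 9 and 7 reads, in ORF and CTR.

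At chromosome 10 from 17458416 to 17458487 both lists had 11 reads. Lower in this order, the site at 4167381 to 4167435 of chromosome 18 had 7 ORF and 10 CTR reads. On chromosome X the site at 155836860 to 155836962 had 6 and 10. On chromosome 4, at 26751651 to 26751743, there were 6 and 5, and on chromosome 6, at 139859115 to 139859253, 17 in each. Summits of the 12 pairs, which overlap by their choice, were a median of 11 bp and at most 42 bp apart. At 7 of the 12, the ORF expected level was at least 2 times the background, beside 47 of the 132 isolated ORF peaks without a partner.

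Isolated peaks of 1 list alone had a median −log10 q of 2.48 in ORF and 2.43 in CTR, beside 2.40 and 3.83 for the shared isolated peaks. In ORF only this median was similar with and without a partner. The shared isolated ORF peaks had median reads of 19.5 and a median expected level of 1.41, against 7 and 0.443 for those of ORF alone. Of the 132 in ORF, 8 reached a −log10 q of 5, 94 lay between 2 and 5, and 30 were below 2. Of the 57 in CTR these numbers were 4, 38 and 15. The ORF peaks with the highest fold were chromosome 9 from 66867510 to 66867573 (12 reads, fold 8.19), chromosome 1 from 55442539 to 55442591 (14 reads, 7.63) and chromosome 6 from 139330556 to 139330615 (10 reads, 7.34). Next came chromosome 4 from 48455283 to 48455339 (12 reads, 6.70), chromosome 9 from 8289204 to 8289263 (32 reads, 6.69) and chromosome 16 from 54415652 to 54415704 (12 reads, 6.68). Chromosome 10 from 19014918 to 19014972 and chromosome 11 from 43793260 to 43793312 followed with 8 reads each. The 32 reads on chromosome 9 stood over 79 input reads per kb, an expected level 10.9 times the background.

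In CTR the highest was chromosome 19 from 28372727 to 28372793 (14 reads, fold 8.94). Chromosome 6 from 79369387 to 79369438 and from 139013193 to 139013256 had 9 reads each at the background level (fold 7.41). The others, in order, were chromosome 1 from 228830708 to 228830766 (9 reads) and from 263952814 to 263952865 (8 reads), chromosome 5 from 127106004 to 127106055 (8 reads), chromosome 4 from 146554279 to 146554344 (14 reads) and chromosome 3 from 64855857 to 64855914 (11 reads). A peak missing from a list has no value there, so these are not sites where the other library was measured to lack reads. Of the 31 isolated ORF peaks at the background level, all 31 had 5 to 8 reads, and of the 20 such CTR peaks 18 did.

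Some single sites, small groups and clusters lay near one another in long stretches. When sites were linked over gaps of up to 1 Mb, the stretch with the most ORF peaks apart from the chromosome 1 cluster was chromosome 4 from 24105110 to 31859299. It included the 7-site cluster named above. Over 7.75 Mb it had 37 sites with 28 ORF and 12 CTR peaks, and 3 of each overlapped. Its ORF peaks had a median of 7 reads at an expected level of 1.18 times the background. The end of chromosome 6, 138465756 to 140571830, which includes both chromosome 6 clusters, showed 16 ORF and 19 CTR peaks over 2.11 Mb, 6 of each shared, at median expected levels of 4.87 and 3.17 times the background.

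Over all members, 79 ORF peaks (22.5%, 18.4 to 27.2) overlapped a CTR peak and 77 CTR peaks (35.6%, 29.6 to 42.2) overlapped an ORF peak. These shares were close to the 22.6% and 33.2% of the whole lists, so sharing as such did not set the members apart. It differed among their classes: 43.1% of clustered ORF peaks (34.9 to 51.7) overlapped, beside 14.3% in small groups (8.17 to 23.8) and 8.33% of isolated ones. In CTR the shares were 50.9% (41.6 to 60.3), 26.8% (15.7 to 41.9) and 17.4%. Peaks of 1 cluster are neighbours and not independent, so these intervals are too narrow, and no test was made. Peaks also lie closer together in clusters, where they covered 0.188% to 42.1% of the region in ORF and 0.171% to 31.0% in CTR. How much of the higher overlap such packing alone would give was not tested. Sharing also went with strength. From a −log10 q of 5 upward, 30 of 57 ORF members (52.6%) overlapped a CTR peak of any strength, against 49 of 294 (16.7%) below it. In CTR it was 33 of 54 (61.1%) against 44 of 162 (27.2%). Sharing at these cutoffs was not counted over the whole lists, so its rise with strength is not shown to be particular to the members.

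**Figure D3:**
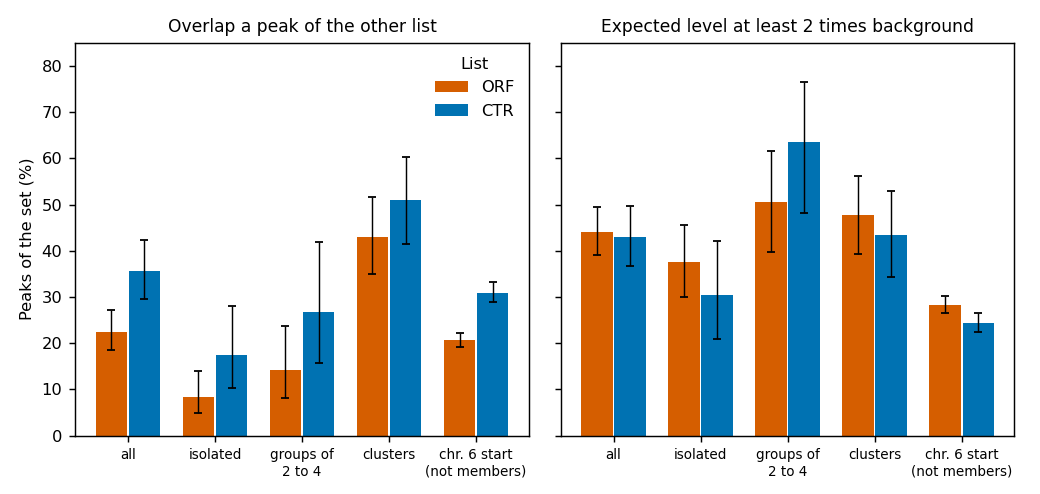
Share of peaks in percent that overlap a peak of the other list (left) and that have an expected level at least 2 times the background (right), for ORF and CTR, with 95% Wilson intervals for counting error as bars. Overlap is higher in clusters (43.1% and 50.9%) than among isolated peaks (8.33% and 17.4%), and the chromosome 6 start is drawn for comparison.

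At the shared members the reads of the ORF library were compared with those of the CTR library. The median ratio of ORF over CTR reads, corrected for the ratio of the backgrounds, was 0.966 over 79 pairs and ran from 0.552 to 2.35. An equal number of reads was found at 14 pairs. Every pair had passed the caller in both lists, which leaves out sites with a large difference. The interval of the ratio lay above 1 at 2 of the 79 pairs (2.53%) and below 1 at none, beside 0.441% and 0.147% of the 680 pairs of the whole lists. The 2 were chromosome 1 from 265469348 to 265469424, with a ratio of 2.35 (exact binomial interval 1.42 to 4.01), and chromosome 13 from 75060968 to 75061039, with 1.97 (1.19 to 3.36). The highest site, chromosome 13 from 75060105 to 75060408, had a ratio of 1.26 (0.938 to 1.71). Its ORF reads may be capped, as said above, and in that case this ratio and its interval would be too low. These intervals compare 2 libraries and not the conditions. Median reads at the pairs were 12 in each list, so most single intervals were wide. An interval that spans 1 therefore does not show equal reads.

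Clustered pairs had a median ratio of 0.966 over 56 pairs, with a range of 0.552 to 1.56 and no interval that left out 1. In small groups the median was 1.14 over 11 pairs, with a range of 0.6999 to 1.97. Those included 37 ORF and 30 CTR reads on chromosome X from 369208 to 369282, and 37 and 33 at 369522 to 369795. They also included 15 and 8 reads on chromosome 2 from 252609863 to 252609975 and 14 and 10 near the start of chromosome 17, from 14208 to 14395. CTR had more reads on chromosome 20 from 19485741 to 19485822 (21 and 29) and on chromosome 6 from 139455498 to 139455550 (9 and 11). The 42 pairs with a raised ORF expected level ran from 0.564 to 1.81, and the 7 isolated ones among them from 0.865 to 1.23. Both pairs whose interval lay above 1 had an ORF expected level under 2 times the background.

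**Figure D4:**
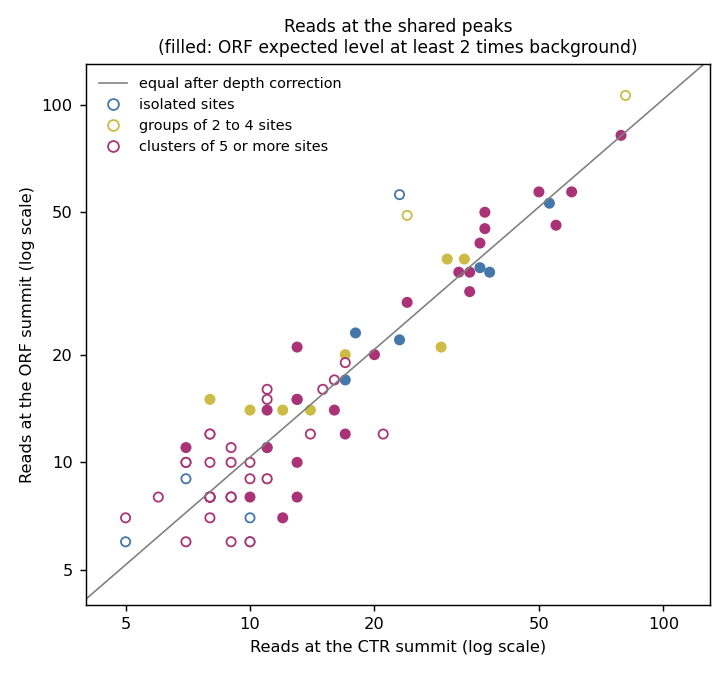
Reads at the ORF summit against reads at the CTR summit for the 79 shared ORF members, both on log scales, coloured by class and filled where the ORF expected level is at least 2 times the background. The line marks equal reads after correction for depth (ratio 1.03). Most points follow it, and the open points at 56 and 49 ORF reads stand above it.

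More of the members than of the whole lists had a raised expected level, while the medians were close, 0.498 against 0.478 in ORF and 0.481 against 0.443 in CTR. An expected level of at least 2 times the background was found at 155 ORF members (44.2%, 39.1 to 49.4) and 93 CTR members (43.1%, 36.6 to 49.7). The whole lists had 30.8% and 27.8%, and the chromosome 6 start 28.4% and 24.4%. A single input read over the fragment already gave 2.60 times the background in ORF and 2.65 in CTR, so a raised level need not mean dense input. At 5 times the background the member shares were 25.4% and 28.2%, and the whole lists were not counted at that cutoff. Small groups had the largest shares, 50.6% in ORF and 63.4% in CTR, and isolated peaks the smallest, 37.5% and 30.4%. For 131 ORF members (37.3%) and 75 CTR members (34.7%) the level was set by input reads at the summit itself. In the whole lists these shares were 26.2% and 24.3%. Among isolated ORF members the highest expected level, 96.2 times the background, was on chromosome 12, where the peak from 1509002 to 1509063 had 69 ORF reads over 37 input reads, a fold of 1.96 and no CTR partner, chosen here after its values were seen.

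Recovered input reads were compared between the lists at the shared members. The series has only 1 Arteridin input library, so equal numbers at nearly the same position are not agreement between separate inputs. For 48 pairs the same window set the level in both, and the recovered number of input reads was the same at 26 of them and within 1 read at 37, with a largest difference of 6. The same number was found at 54.2% of these member pairs and at 62.9% of the 385 such pairs of the whole lists. Summits of a pair lie up to 249 bp apart, so the windows do not cover the same bases. Without the peaks at a raised level, 16.8% of 196 ORF and 26.8% of 123 CTR members overlapped, and the part of the input in the sharing was not tested beyond this.

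**Figure D5:**
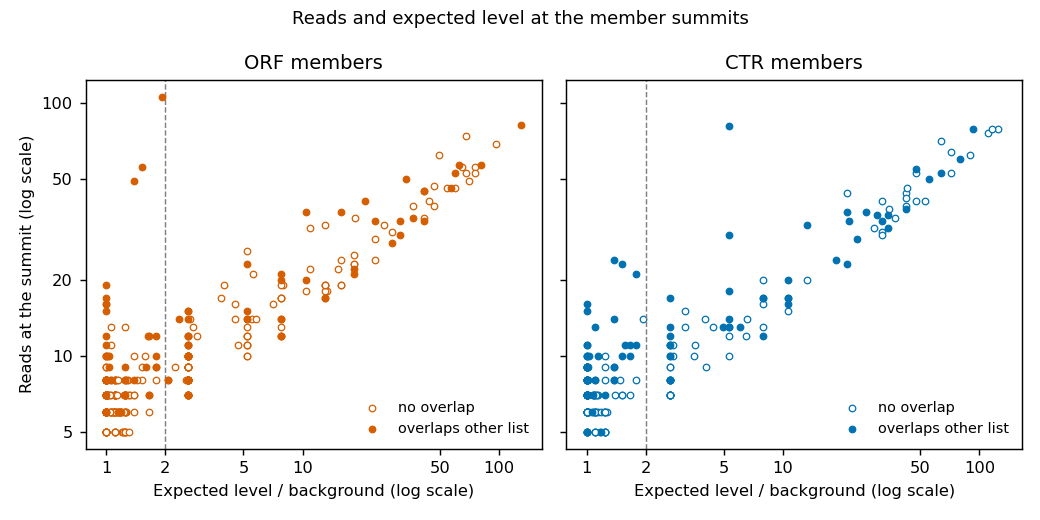
Reads at the summit against the expected level relative to the background, both on log scales, for the 351 ORF and 216 CTR members; filled points overlap the other list and the dashed line marks 2 times the background. Reads rise along with the expected level, because a peak must exceed it to be called. The filled points at 106, 56 and 49 ORF reads left of the line are the 3 strongest sites.

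Members were also short. Median lengths were 69 bp in ORF and 70 bp in CTR, against 82 and 79 bp on the chromosome 6 start. The shortest peaks of the lists had 53 and 52 bp. Isolated peaks were the shortest, with medians of 57 and 59 bp, and clustered ones measured 89 and 83 bp. Shared ORF members had a median of 92 bp against 62.5 bp for those without a partner. Longer peaks have a higher chance of overlap, so length and sharing are not independent.

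YBX1, a protein that binds DNA and RNA, was listed at few of these sites. Of the ORF members, 9 (2.56%, 1.35 to 4.80) overlapped a YBX1 peak of any list, as did 7 CTR members (3.24%, 1.58 to 6.54). Over all Arteridin peaks on chromosomes 1 to 20 and X the shares were 0.376% and 0.457%. Those include the members, which were 9 of the 11 overlapping ORF peaks and 7 of the 9 overlapping CTR peaks. The expected level was raised at 6 of the 9 ORF members and 4 of the 7 CTR members. On chromosome 1, a PSR peak (148643432 to 148644439) overlay 3 ORF members, and an ART peak (148643474 to 148644345) overlay the first 2 of them. They were 148643495 to 148643570, 148644005 to 148644093 and 148644436 to 148644593, with 57, 46 and 50 reads. Both YBX1 peaks overlay 3 CTR members with 50, 55 and 44 reads. Expected levels of these 6 members were 33.8 to 62.4 times the background. Isolated ORF members overlapped ART on chromosome 6 (30644104 to 30644176, also PSR) and chromosome 14 (46529825 to 46529907), with levels 44.2 and 54.6 times the background.

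Overlaps at the background level were 2 in number among ORF members. In the chromosome 15 cluster, the ORF peak from 22207819 to 22207871 (10 reads) and the CTR peaks from 22207837 to 22207926 (7 reads) and from 22208049 to 22208125 (8 reads) lay under 1 ART peak of fold 2.46. On chromosome 1, the ORF peak from 148166768 to 148166846 (6 reads) lay under an ART peak of fold 4.88. On chromosome X, 359726 to 359860 in ORF and 359723 to 359860 in CTR, with 20 and 17 reads, met the edge of an ART peak of fold 2.19. The only member under an NC peak was the strong isolated site on chromosome 1 from 265469348 to 265469424, whose NC peak ran from 265469321 to 265469626 with a fold of 88.2. The sources used here do not give the build of the YBX1 lists, and positions were compared as listed.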

How the data were processed

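ChIP-seq peak lists of A10 cells were used as the authors deposited them, 1 list per library. Bowtie2, MACS2, SAMtools, HOMER and FastQC are named in the submitters' processing notes. The sources used here do not give versions, build, cutoffs or the handling of duplicates, and the RefSeq sequence names in the lists are those of Rnor_6.0. Every peak as deposited has a score, a fold (a ratio over the expected level), −log10 p and −log10 q, and for narrow peaks the other value, the summit's distance from the start. Reads n and expected level L at each summit were solved from fold = (n + 1) / (L + 1) and p = P(X > n), X being Poisson with mean L. All 3013 ORF and 2079 CTR peaks gave whole reads within 0.0001 in −log10 p. A level counted as a whole number of input reads within 5e-05, or 2e-05 of the level where that was more, and one that matched several windows was given the shortest. The worth of 1 input read over 1 fragment was 0.940 in ORF and 0.925 in CTR. Overlap meant at least 1 bp, rechecked with bedtools 2.31.1 (79 and 77 shared members). Python 3.11.15 with scipy 1.17.1 gave 95% Wilson intervals for shares and exact binomial ones for read ratios. Named peaks were the 8 isolated sites of highest fold shared or in 1 list alone, every cluster with its highest peak, and members under YBX1 peaks. Others were chosen after their values were seen. Members and rules were chosen with earlier results of these data known. Alternatives changed the −log10 q, the overlap, the linking gap, the cluster size, the raised level, the boundary and the depth correction.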

Additional observations from a re-analysis of the deposited data

How the results depend on the processing

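The 6 results were recomputed for each list where it applied, 67 values in all, and 39 stayed within the interval of the reported value or within 1.5 times a count. With a −log10 q of at least 5, 57 ORF and 54 CTR members remained, the shared part of ORF was 33.3%, the raised part of ORF 52.6% and the median read ratio 1.12. With at least 2, the raised part of ORF was 37.5%. Without peaks at a raised level, 196 ORF and 123 CTR members were left, with shared parts of 16.8% and 26.8%, and 10.2% of isolated CTR peaks. The clustered part of ORF and CTR was 28.5% and 38.4% with a gap of 10 kb, 57.0% and 66.7% with 1 Mb, 45.9% and 59.7% with at least 3 sites, and 27.6% and 35.2% with at least 10. Linked within each list alone (added after the data were seen), it was 37.5% in CTR. Reciprocal overlap of 50% gave shared parts of 14.8% and 24.1%, and summits within 1000 bp gave 32.2% and 50.0%. Raised parts were 25.4% and 28.2% at 5 times the background and 59.0% and 58.3% at 1.2 times. For the cutoffs on q and the removal of raised peaks, the cause of the moved shares and ratio was not tested. In each alternative with a value for both lists, the clustered part and the shared part were higher in CTR than in ORF. For the shared part this follows from the shorter CTR list, because the numbers of overlapping peaks were nearly equal in both lists. For the clustered part, linking across both lists gives CTR peaks neighbours from the longer ORF list. Linked within each list alone, the clustered part was 32.5% in ORF, beside the 37.5% in CTR. No paired analysis was possible because there was 1 library per condition. A peak at the background rests on as few as 5 reads.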
